A study of Homo sapiens with 36 samples.

Results

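The glycophorin, Rh, Kx and Kell genes encode surface proteins of the red cell that carry blood group antigens, and occupancy of 8 of them by GATA2 was described here: GYPB, GYPE and GYPC (glycophorins), RHCE, RHD and RHAG (the Rh complex), XK (the Kx protein) and KEL (the Kell protein). A peak was assigned to a gene when its summit lay in the gene body on hg38 or within 10 kb on either side, and overlapping peaks were merged into sites. This gave 40 of the 17277 sites of the series and 312 of its 120509 peaks. The measurement was CUT&Tag, in which an antibody directs a transposase to chromatin and the released fragments are sequenced. It was done in HUDEP-2, an immortalized human erythroid progenitor line, whose cells were infected with lentivirus and sorted for GFP. Wild-type cells carried the empty vector, and cells with a low level of GATA2, labelled GATA2+/-, carried the same vector, or else GATA2 with an HA tag, intact or bearing the T354M substitution (HA-GATA2 and HA-T354M below). An in-house anti-GATA2 antibody was used on these 4 kinds of cells and a commercial anti-HA antibody on the 3 kinds of GATA2-low cells, with 4 libraries in each of the 7 groups. The sources used here give neither the number of clones behind the GATA2-low line nor whether replicates were grown apart, so each p-value speaks to library-to-library spread alone, and that spread may be technical.

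GATA factors recognise the core sequence GATA through zinc fingers, and T354M lies in the finger that contacts DNA. GATA2 works mainly in stem and early progenitor cells, and its relative GATA1 takes over many of the same elements as red cells mature. The Rh proteins are assembled on the membrane with RhAG, an ammonia channel, while Kell, a zinc endopeptidase, is held to the Kx transporter-like protein by a disulfide bond.

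The stretch around the start is printed for the 4 genes in which a site overlapped it, to show the letters at these peaks. The GYPB, GYPE and RHAG sites covered the whole stretch, and the KEL site covered both KEL matches but not the upstream end of the stretch. Each runs 5′ to 3′ on the strand of the gene, from 200 bases before the RefSeq start to 10 bases from it (assembly GRCh38.p14), and capitals mark matches to AGATAA or AGATAG, and to TGATAA or TGATAG, on either strand. All 4 genes are on the minus strand. The stretches are chr4:144019371-144019580 for GYPB, chr4:143905550-143905759 for GYPE, chr6:49636830-49637039 for RHAG and chr7:142962354-142962563 for KEL.
GYPB: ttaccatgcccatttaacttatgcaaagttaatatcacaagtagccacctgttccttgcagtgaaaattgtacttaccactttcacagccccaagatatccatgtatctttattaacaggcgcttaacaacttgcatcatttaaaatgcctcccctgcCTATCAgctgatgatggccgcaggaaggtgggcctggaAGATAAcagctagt
GYPE: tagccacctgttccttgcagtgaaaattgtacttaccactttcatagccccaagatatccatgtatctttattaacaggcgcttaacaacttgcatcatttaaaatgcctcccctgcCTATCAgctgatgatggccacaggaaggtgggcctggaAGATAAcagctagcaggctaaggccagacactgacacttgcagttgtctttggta
RHAG: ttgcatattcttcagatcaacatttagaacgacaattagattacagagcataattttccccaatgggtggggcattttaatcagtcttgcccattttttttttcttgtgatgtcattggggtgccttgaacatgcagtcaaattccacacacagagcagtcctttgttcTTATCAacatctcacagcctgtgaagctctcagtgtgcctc
KEL: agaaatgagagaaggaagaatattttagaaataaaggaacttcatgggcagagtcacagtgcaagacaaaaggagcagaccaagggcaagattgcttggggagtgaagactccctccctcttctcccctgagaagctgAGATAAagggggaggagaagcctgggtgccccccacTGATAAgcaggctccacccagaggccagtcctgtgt
In GYPB the matches began 42 and 4 bases before the start, in GYPE 83 and 45 bases before it, in RHAG 31 bases before it and in KEL 62 and 26 bases before it. GYPB and GYPE are paralogs, and the 300-base windows in the promoter table were 98.1% identical over 259 aligned bases. The RHD and RHCE windows were 99.1% identical over 213 aligned bases. How the authors placed reads that match more than 1 copy is not given in the sources used here, so values that set GYPB beside GYPE, or RHD beside RHCE, are uncertain. All 7 members with a row in the table held such a match within 250 bases before to 50 after the start, against 8769 of 35116 windows (25%). Each member was counted by 1 window, whereas the 25% counts every window, also where a gene has several. The 7 include both near-identical pairs above, so they are not 7 separate observations. A match describes letters only. In GYPC, RHD and RHCE no site touched this window although each held 1 match.

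With anti-GATA2, 6 of the 8 genes (GYPB, GYPE, GYPC, RHCE, RHD and RHAG) had a peak in all 16 libraries. The share over all protein-coding genes is not given, so this describes the 8 genes only. At XK, 3 wild-type and 4 HA-GATA2 libraries had one, and 0 of 4 did in each of the HA-T354M and GATA2-low empty-vector groups. KEL had one in 1 of 4 wild-type, 1 of 4 GATA2-low empty-vector, 3 of 4 HA-GATA2 and 0 of 4 HA-T354M libraries. With anti-HA the empty vector, which holds no tag, had 0 of 4 at every gene, and its lists held only 1 to 6 peaks each. The first 6 genes had a peak in 4 of 4 HA-GATA2 anti-HA libraries, and in HA-T354M only GYPC (2 of 4), RHCE (3 of 4) and RHD (2 of 4) did. XK and KEL had none with anti-HA.

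The lists differed in length by group, and the number of sites at these genes went with it. Wild-type lists held 6555 to 9121 peaks and GATA2-low empty-vector lists 1823 to 3648. HA-GATA2 and HA-T354M anti-GATA2 lists held 7064 to 12171 and 2779 to 6311, and their anti-HA lists 1912 to 6065 and 426 to 744. Peaks at the 8 genes numbered 16.5 ± 2.65 (SD, n = 4) in wild-type, 10 ± 1.83 in GATA2-low empty-vector, 26.75 ± 6.65 in HA-GATA2 and 11.25 ± 1.71 in HA-T354M anti-GATA2 libraries, while with anti-HA they numbered 11.75 ± 2.5 for HA-GATA2 and 1.75 ± 1.5 for HA-T354M. As a share of the list this was 0.217% in wild-type and 0.432% in GATA2-low empty-vector libraries, 0.256% in HA-GATA2 and 0.246% in HA-T354M. Read totals are unknown. The lowest local background of each list, a stand-in for depth recovered from the deposited fold and p, averaged 0.265 fragments in wild-type, 0.174 in GATA2-low empty-vector, 0.431 in HA-GATA2 and 0.479 in HA-T354M anti-GATA2 libraries, and its part in the counts was not tested beyond the alternative with thinned fragments.

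**Figure D1:**
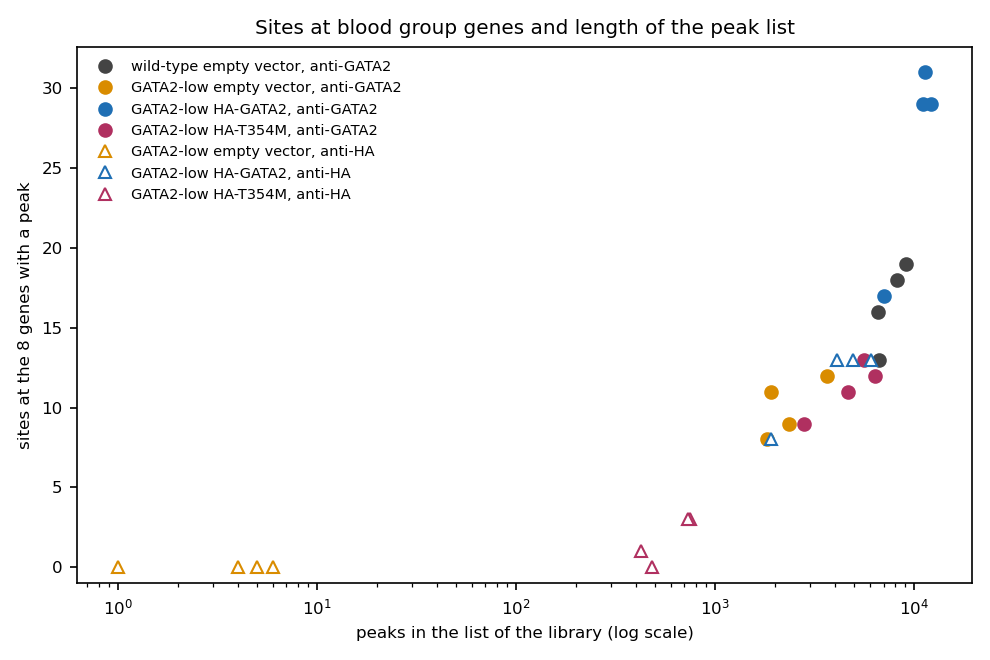
Number of sites at the 8 genes that had a peak (vertical axis) against the number of peaks in the list of that library (horizontal, log scale), 1 symbol per library. The 4 empty-vector anti-HA libraries sit at 0 sites, and the 3 longest HA-GATA2 lists sit at 29 to 31.

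A site is named below by its gene and the distance in bp of its median summit from the gene start (minus is upstream). XK has no row in the promoter table, so its distances run from the lower-coordinate end of the gene. The gene table holds no exons, so sites are placed inside or outside genes only. The percentile of a peak is the share of peaks in its own list with a -log10 q at or below that of the peak, and as lists differ in length it describes a library and shows no change between groups. Of the 39 sites with any anti-GATA2 peak, 8 (20.5%) had one in all 16 libraries, against 1200 of 16972 (7.07%) over the series. These 8 are GYPB -148, GYPE -158, GYPC +5771, GYPC +18056, RHCE +7605, RHD +7361, RHD +12791 and RHAG -9588. At the other end, 10 of the 40 sites came from 1 library each. Among sites with an anti-GATA2 peak this was 9 of 39, against 3362 of 16972 over the series.

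**Figure D2:**
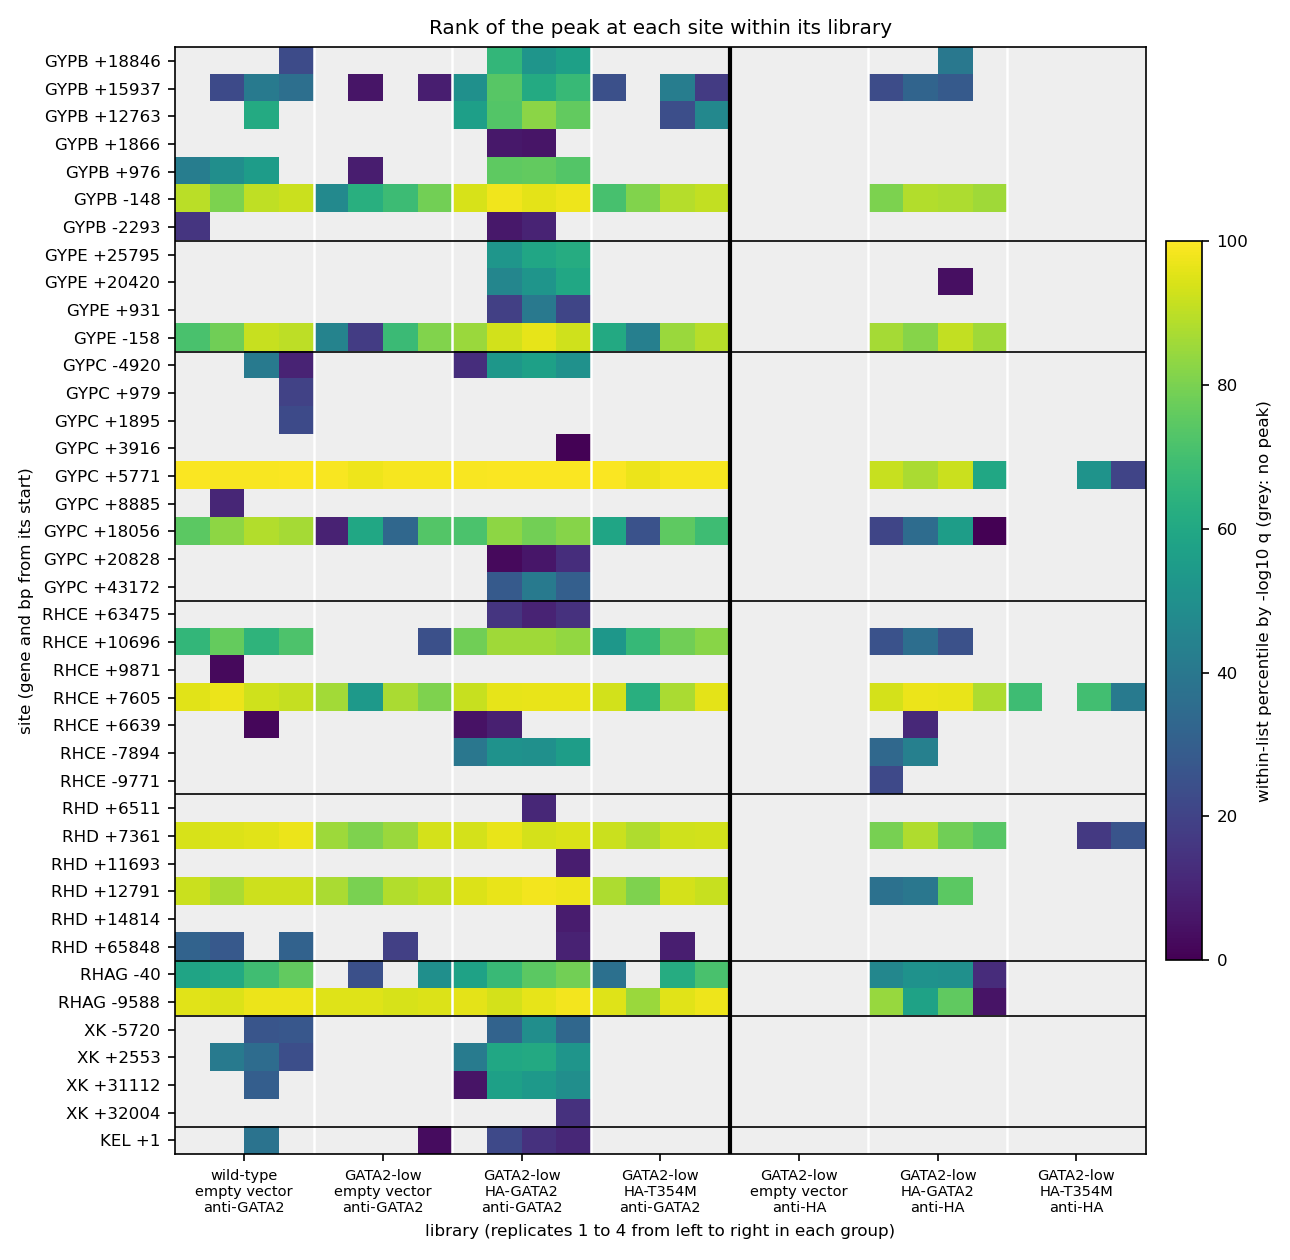
Within-list percentile (colour) of the peak at each of the 40 sites (rows) in each of the 28 libraries (columns, 4 per group); grey means no peak. The 8 rows filled across all 16 anti-GATA2 columns are the sites named in the text, and the empty-vector anti-HA columns hold no peak.

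**Figure D3:**
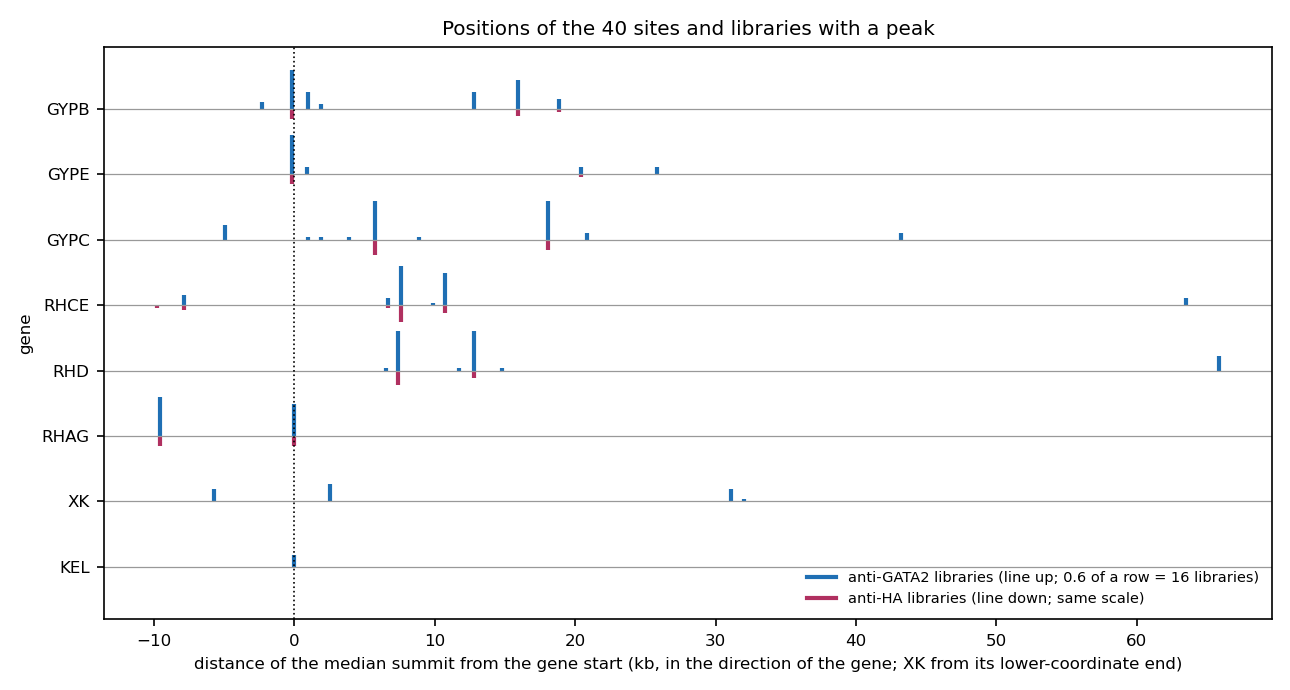
Distance of each site from the start of its gene in kb, with the number of anti-GATA2 libraries with a peak as a line up and of anti-HA libraries as a line down. The tallest lines lie at the start in GYPB and GYPE, inside the gene in GYPC, RHCE and RHD, and upstream in RHAG.

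Among the glycophorins, GYPB and GYPE had their strongest site at the start. GYPB encodes glycophorin B, which carries the S and s antigens. GYPB -148 (chromosome 4, 144019164 to 144019832) stood at percentiles 89.5, 80.1, 90.3 and 92 in the wild-type libraries whereas the GATA2-low empty-vector libraries gave 47, 62.9, 68.6 and 78.6. In the HA-GATA2 libraries the percentiles were 93.8, 97.9, 96 and 97.6, and in HA-T354M 70.8, 81, 88.9 and 90.8. All 4 HA-GATA2 anti-HA libraries also had it, at 80.2, 88.5, 87.7 and 85.7, and no HA-T354M anti-HA library did. Its median summit lay upstream of both matches marked in GYPB above.

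GYPE encodes glycophorin E, a close copy of glycophorin B. GYPE -158 (chromosome 4, 143905288 to 143906025) had the same libraries as GYPB -148. Its percentiles were 71.3, 78.3, 91.6 and 90 in wild-type, 44.7, 17.9, 68.1 and 81.2 in GATA2-low empty-vector, 84.8, 93.3, 96.3 and 92.7 in HA-GATA2 and 60.9, 43, 85.1 and 89.1 in HA-T354M libraries. With anti-HA the HA-GATA2 libraries gave 86.5, 81.9, 91 and 85.7. The wild-type libraries split here, replicates 1 and 2 below 80 and replicates 3 and 4 at 90 or above.

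Other GYPB and GYPE sites were scattered. GYPB +15937 (144003264 to 144003849) had a peak in 3 of 4 wild-type, 2 of 4 GATA2-low empty-vector, 4 of 4 HA-GATA2, 3 of 4 HA-T354M and 3 of 4 HA-GATA2 anti-HA libraries. GYPB +976 stood at 3, 1, 3 and 0 of 4 and GYPB +18846 at 1, 0, 3 and 0 of 4 anti-GATA2 libraries in that order of groups, and 1 HA-GATA2 anti-HA library also had GYPB +18846. GYPE +25795, GYPE +20420 and GYPE +931 were each in 3 of 4 HA-GATA2 anti-GATA2 libraries (replicates 2, 3 and 4) and in no other anti-GATA2 library, and GYPE +20420 also in 1 HA-GATA2 anti-HA library. GYPB +1866 was in 2 HA-GATA2 libraries, and GYPB -2293 in 1 wild-type and 2 HA-GATA2 libraries.

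GYPC encodes glycophorins C and D, which tie the membrane to the skeleton through protein 4.1. Its leading site lay inside the gene, GYPC +5771 (chromosome 2, 126661478 to 126662585). This peak ranked 47 of 6641, 56 of 6555, 80 of 9121 and 57 of 8183 in the wild-type lists and 21 of 1823, 46 of 1914, 32 of 2336 and 43 of 3648 in the GATA2-low empty-vector lists. In HA-GATA2 it ranked 76 of 7064, 65 of 11012, 81 of 12171 and 52 of 11333, and in HA-T354M 25 of 4643, 87 of 2779, 75 of 5587 and 87 of 6311. It was therefore within the first 87 peaks of every anti-GATA2 list. With anti-HA it stood lower in the lists, at percentiles 91.7, 87.2, 91.9 and 59.5 in HA-GATA2 and 51.5 and 20.7 in HA-T354M replicates 3 and 4.

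GYPC +18056 (126673905 to 126674685), also inside the gene, had percentiles of 74.9, 83.1, 88.6 and 86.4 in wild-type, 9.76, 59.7, 33.4 and 73.2 in GATA2-low empty-vector, 71.7, 82.9, 78.9 and 81.8 in HA-GATA2 and 58.8, 25.2, 75.3 and 68.9 in HA-T354M libraries. In HA-GATA2 anti-HA replicate 4 it was rank 1911 of 1912. GYPC -4920 (126651014 to 126651325), upstream, was in 2 of 4 wild-type (percentiles 41 and 9.87) and 4 of 4 HA-GATA2 libraries (13.2, 53.1, 56.7 and 50.5) and in neither other anti-GATA2 group. GYPC +20828 and GYPC +43172 were in 3 of 4 HA-GATA2 libraries each, and 4 more sites in GYPC were in 1 library each.

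RHD encodes the protein with the D antigen and RHCE the protein with the C and E antigens; the genes lie tail to tail on chromosome 1. Both had their leading sites several kb inside the gene. RHD +7361 (25279726 to 25280587) had percentiles of 94, 94.9, 95.6 and 96.9 in wild-type, 85.3, 80.6, 85 and 93.7 in GATA2-low empty-vector, 93.4, 96.7, 93.7 and 94.4 in HA-GATA2 and 91.9, 87.9, 92.7 and 93.3 in HA-T354M libraries. With anti-HA these were 79.6, 88, 78.3 and 74.1 in HA-GATA2 and 16.5 and 26 in HA-T354M replicates 3 and 4. The range over the 16 anti-GATA2 libraries was thus narrow beside that of GYPE -158 or GYPC +18056.

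RHD +12791 (25284766 to 25285633) lay between 79.9 and 98.2 in all 16 anti-GATA2 libraries, and in 3 of 4 HA-GATA2 anti-HA libraries at 37.2, 39.5 and 74.7. Both RHD sites also lie inside the gene record of RSRP1, which overlaps RHD. RHD +65848 (3, 1, 1 and 1 of 4 anti-GATA2 libraries) lies beyond RHD, inside TMEM50A, and overlaps the promoter windows of RSRP1 and TMEM50A, so its assignment to RHD rests on the 10 kb window alone. RHD +6511, RHD +11693 and RHD +14814 were in 1 HA-GATA2 library each.

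RHCE +7605 (25412502 to 25413799) had percentiles of 95.4, 96.9, 92.6 and 91.4 in wild-type, 86, 54.2, 87.3 and 80.6 in GATA2-low empty-vector, 91.5, 96.3, 96.6 and 96.5 in HA-GATA2 and 93.3, 63.1, 87.3 and 95.9 in HA-T354M libraries. With anti-HA it was the site of these genes with most libraries, at 93.5, 96.9, 96.5 and 87.8 in HA-GATA2 and 69, 69.9 and 41.4 in HA-T354M replicates 1, 3 and 4. Its summits spread over 886 bp, so more than 1 summit was merged here. RHCE +10696 (25409815 to 25410690) was held by 4 wild-type lists (66.1, 76.4, 65.1 and 72.1), 1 GATA2-low empty-vector list (24.3), 4 of 4 HA-GATA2 (78.4, 85.6, 85.7 and 83.6) and 4 of 4 HA-T354M libraries (52.8, 67, 78.4 and 82.2). With anti-HA it was in HA-GATA2 replicates 1, 2 and 3 at 25, 36.1 and 24.8.

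RHCE -7894 (25428724 to 25429100) was in all 4 HA-GATA2 libraries, at 39.8, 50.8, 50.3 and 55.6, in HA-GATA2 anti-HA replicates 1 and 2 at 33.9 and 43.7, and in no other library. It is upstream of the start used here but inside the RHCE gene record, and the nearest start in the promoter table is that of MACO1, 2068 bp away. RHCE +63475, inside TMEM50A, was in 3 of 4 HA-GATA2 libraries. RHCE +6639 was in 1 wild-type, 2 HA-GATA2 and 1 HA-GATA2 anti-HA libraries, and RHCE +9871 and RHCE -9771 were in 1 library each, the latter over the promoter window of MACO1.

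RHAG encodes the glycoprotein that the Rh proteins need to reach the membrane. RHAG -9588 (chromosome 6, 49645659 to 49647002) lay near the edge of the window and stood at 95.5, 94.8, 97.2 and 97.1 in wild-type, 95.2, 95.2, 93.8 and 94.7 in GATA2-low empty-vector, 95.9, 93.4, 96.3 and 98.2 in HA-GATA2 and 95.1, 84.9, 95.4 and 97.6 in HA-T354M libraries. HA-GATA2 anti-HA libraries had it at 84.7, 57.6, 75.7 and 5.44. RHAG -40 (49636530 to 49637159) covered the start, its median summit 9 bases upstream of the match marked in RHAG above. It was held by 4 wild-type lists (58.3, 60.7, 69.5 and 75.9), 2 GATA2-low empty-vector lists (24.3 and 49.9), 4 of 4 HA-GATA2 (57.8, 67.9, 74.9 and 78.7) and 3 of 4 HA-T354M libraries (37.1, 61.9 and 71.1), and by 4 of 4 HA-GATA2 anti-HA libraries (46.2, 50.9, 50.2 and 12.6). The RHAG sites thus differed in which GATA2-low libraries held them, the upstream one being in all of them with anti-GATA2.

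XK encodes the Kx antigen and had no site in every library. XK +2553 (chromosome X, 37688136 to 37688646) was in wild-type replicates 2, 3 and 4 at percentiles 41.2, 35.2 and 24.2 and in the 4 HA-GATA2 libraries at 41.5, 59.5, 60.8 and 52.3. XK +31112 (37716742 to 37717170) was in 1 wild-type library at 29.9 and in the 4 HA-GATA2 libraries at 5.32, 56.9, 54 and 49.4. XK -5720, which lies inside LANCL3, was in 2 wild-type and 3 HA-GATA2 libraries, and XK +32004 in 1 HA-GATA2 library. No GATA2-low empty-vector, HA-T354M or anti-HA library had a peak at XK.

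KEL encodes the Kell protein and had 1 site, KEL +1 (chromosome 7, 142962142 to 142962480), at the start. It was in wild-type replicate 3 at 37.9, in GATA2-low empty-vector replicate 4 at 3.26 and in HA-GATA2 replicates 2, 3 and 4 at 22, 14.3 and 11.2. Its median summit lay 1 base inside the gene, downstream of both matches marked in KEL above. It covered 167 of the 300 bases of the promoter window.

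The first comparison asked what a lower level of GATA2 does to occupancy, by setting GATA2-low against wild-type cells, each with the empty vector. Of 26 sites at these genes with a peak in either group, 17 had more libraries in wild-type, 9 had as many and 0 had fewer. The share with more was 65.4% here and 86.1% over all sites with a peak, so it was not higher at these genes than in the series. None passed the test (Fisher's exact test, two-sided, of peak presence over the libraries, in which only 4 of 4 against 0 of 4 reaches p = 0.0286, with Benjamini-Hochberg adjustment over the sites with a peak in 4 of the 8 libraries). The number was 0 of 26 also at an unadjusted p under 0.05, and over all sites 13.7% were called higher in wild-type. A peak in all 8 libraries was seen at 8 of 26 sites (30.8%), against 11.6% of all sites. The nearest to a call were RHCE +10696, at 4 against 1, and XK +2553, at 3 against 0. With a -log10 q of at least 15 the first of these became 4 against 0 and was called. A call needs 4 of 4 against 0 of 4, so a change in height at a site held by all libraries could not be detected by it.

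Adding HA-GATA2 to GATA2-low cells asked whether occupancy returns. Against the empty vector, 26 of 35 sites (74.3%) had more anti-GATA2 libraries, 9 as many and 0 fewer, while 88.8% of all sites had more. Sites called higher numbered 5 of 35, GYPB +12763, GYPC -4920, RHCE -7894, XK +2553 and XK +31112, each at 4 of 4 against 0 of 4 (Fisher's exact test with Benjamini-Hochberg adjustment, adjusted p = 0.0311), where 23.8% of all sites were called. The share at these genes was 14.3%. At 8 of the 35 (22.9%) all 8 libraries had a peak, so that these could not be called, against 9.17% of all sites. The 4 HA-GATA2 libraries had GYPB +12763 (144006374 to 144006713) at percentiles 56.4, 73.1, 82.6 and 76, and 1 wild-type library had it at 61. The 5 sites were in 1, 2, 0, 3 and 1 of the 4 wild-type libraries, in the order given. With lists of equal length (the first 1823 peaks of each library) 0 were called higher and GYPC +18056 was called lower, at 0 of 4 against 4 of 4. Over the series 251 sites were then called higher and 123 lower, against 3353 and 0 with the full lists. GYPC +18056 ranked 2002, 1888, 2568 and 2061 in the full HA-GATA2 lists, past the cut at 1823. All 8 full lists held it, so this call shows no loss of the peak. Without HA-GATA2 replicate 1, whose list of 7064 peaks was the shortest of its group, 13 sites at these genes were called. Over the series 5536 were, against 3353 with all libraries. Without GATA2-low empty-vector replicate 1, 2 or 3, 0 were called at these genes and 0 over the whole series. The 5 sites stayed in 4 of 4 HA-GATA2 libraries there. With all libraries RHCE +10696 stood at 4 of 4 against 1 of 4 in this comparison too. It was called with a -log10 q of at least 15, at 4 against 0, and also without GATA2-low empty-vector replicate 4. At that q GYPC -4920 and XK +31112 were in 3 of 4 HA-GATA2 libraries and lost the call. GYPB +15937 was called at that q, at 4 against 0. With thinned fragments XK +31112 was in 3 of 4 HA-GATA2 libraries and lost the call.

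HA-T354M against the empty vector had more anti-GATA2 libraries at 4 of 15 sites (26.7%), as many at 9 and fewer at 2, while 69.7% of all sites had more. At 8 of the 15 (53.3%) all 8 libraries had a peak, so that neither group could have more, against 15.8% of all sites. Sites called numbered 0 of 15, also at an unadjusted p under 0.05, where 0% of all sites were called (smallest adjusted p = 0.0575 over all sites, Fisher's exact test with Benjamini-Hochberg adjustment). RHCE +10696 stood at 4 of 4 against 1 of 4, and with a -log10 q of at least 15 it stood at 4 against 0 and was called. GYPB +976 and KEL +1 were the sites with fewer libraries, at 0 against 1 of 4 each.

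The mutant was also set directly against HA-GATA2. With anti-GATA2, 25 of 35 sites (71.4%) had more HA-GATA2 libraries, 10 as many and 0 fewer, while 74% of all sites had more. Called higher in HA-GATA2 were 4 of 35 sites (11.4%), where 10.2% of all sites were called: GYPC -4920, RHCE -7894, XK +2553 and XK +31112, each at 4 of 4 against 0 of 4 (Fisher's exact test, adjusted p = 0.039 by Benjamini-Hochberg). The share at these genes was near that of all sites. GYPB +12763, the other site called against the empty vector, stood at 4 against 2 here, the HA-T354M percentiles being 24.1 and 46.5. These comparisons share the HA-GATA2 libraries, so their calls are not independent. The number was 14 without HA-GATA2 replicate 1, 0 without any 1 of the other 7 libraries and 0 with lists of equal length (2779 peaks). With equal lengths 156 sites of the series were called higher and 118 lower, against 1484 and 5 with the full lists. Series counts without single libraries are not given here, so the first values show nothing particular to these genes.

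With anti-HA, HA-GATA2 had a peak at 16 sites, and the empty vector had 0 of 4 at each. Because the empty-vector lists were nearly empty, every site entered through HA-GATA2 and a site in all 4 of its libraries was bound to be called, so the count describes presence in HA-GATA2 and tests no difference particular to a site. Present in 4 of 4 were 8 of 16 sites, GYPB -148, GYPE -158, GYPC +5771, GYPC +18056, RHCE +7605, RHD +7361, RHAG -40 and RHAG -9588, where 25.3% of all sites were called by the same rule. The other 8 sites were in 1 to 3 of the 4 HA-GATA2 anti-HA libraries. Of the 8 sites held by every anti-GATA2 library, 7 were among these, and RHD +12791 was in 3 of 4. With -log10 q of at least 15, and also with lists of equal length (1912 peaks), 5 were called, without GYPC +18056 and both RHAG sites. Without HA-GATA2 anti-HA replicate 4, whose list of 1912 peaks was the shortest of its group, 11 were called, and without any 1 of the empty-vector libraries 0.

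HA-T354M with anti-HA had a peak at 3 sites, GYPC +5771, RHCE +7605 and RHD +7361, in 2, 3 and 2 of 4 libraries. The comparison with the empty vector has the same limit. None of the 3 was called (0 of 3 at an unadjusted p under 0.05 also, Fisher's exact test), where 22.3% of all sites were, and without HA-T354M replicate 2 RHCE +7605 was called. Against HA-T354M, HA-GATA2 had more anti-HA libraries at all 16 sites with a peak, as at 95.5% of all sites, while HA-T354M lists held 426 to 744 peaks and HA-GATA2 lists 1912 to 6065. Called were 5 of 16, GYPB -148, GYPE -158, GYPC +18056, RHAG -40 and RHAG -9588 (4 of 4 against 0 of 4, Fisher's exact test with Benjamini-Hochberg adjustment, adjusted p = 0.0321), where 13.6% of all sites were called. The number was 8 without HA-GATA2 anti-HA replicate 4, 0 without any 1 of the HA-T354M libraries, 3 with thinned fragments and 0 with lists of equal length (426 peaks). Series counts under these alternatives are not given here, so these numbers show nothing particular to these genes. All 16 sites had an HA-GATA2 peak and none had a peak in HA-T354M alone, so none could be called higher in HA-T354M. GYPB -148 and GYPE -158 were in 4 of 4 HA-GATA2 and 0 of 4 HA-T354M anti-HA libraries. Both were in 4 of 4 libraries of each with anti-GATA2. The GATA2-low empty-vector cells, which hold no tagged protein, also had both sites in 4 of 4 anti-GATA2 libraries.

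**Figure D4:**
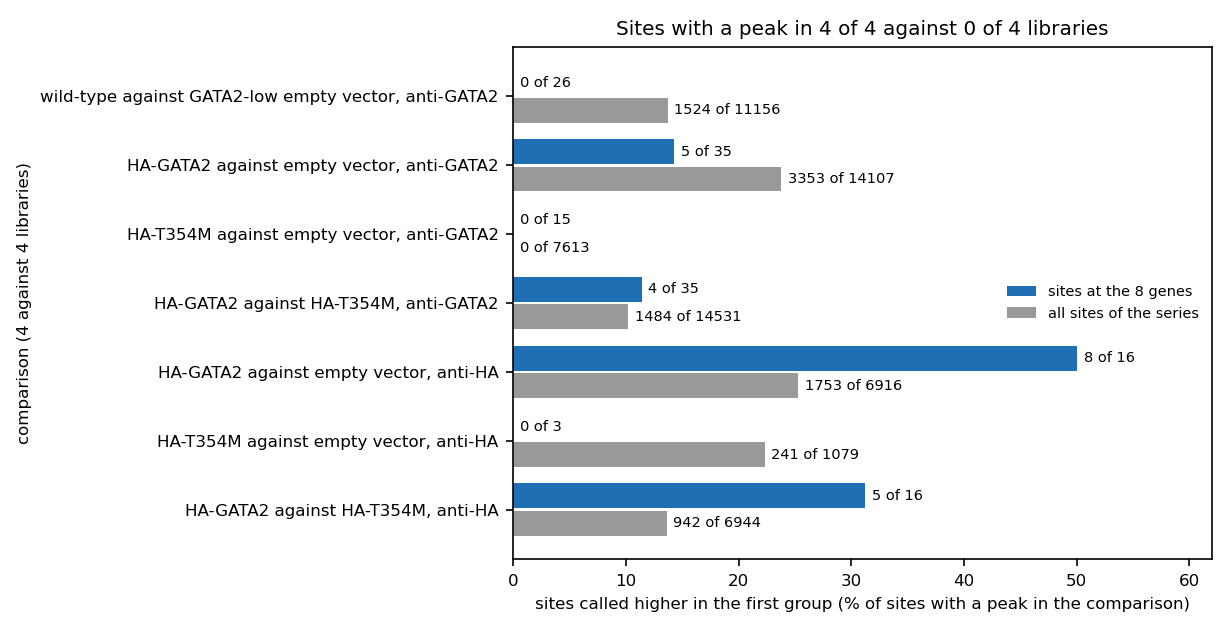
Percent of sites called higher in the first-named group in each of the 7 comparisons, for the sites at the 8 genes and for all sites with a peak in the comparison (bars from 0, counts beside them). In HA-GATA2 against the empty vector with anti-GATA2 the sites at these genes lie below all sites, at 14.3% and 23.8%. There 22.9% and 9.17% had a peak in all 8 libraries and could not be called. In both anti-HA comparisons with the nearly empty lists of the empty vector a bar is only the share of sites in all 4 libraries of the first group.

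A wider list of 35 genes of other blood group systems, 34 of which are in the gene table, was read by gene. A gene counted as occupied in a library when any summit fell inside it or up to 10 kb away. Of these, 27 had a peak in at least 1 library and 9 had one in all 16 anti-GATA2 libraries, against 6 of the 8 main genes. No share over all protein-coding genes is given for these counts, so they show no trait particular to either list. In wild-type against GATA2-low empty-vector cells 0 of the 8 main genes and 4 of the 26 others with a peak in the comparison were called higher, where 15.8% of all genes with a peak were called. No main gene could be called here, since 6 had a peak in all 8 libraries, XK stood at 3 against 0 and KEL at 1 against 1. Counts below are likewise over genes with a peak in the comparison. The 4 were A4GALT (the P1PK synthase), ABCB6 (a porphyrin transporter that carries Langereis), EMP3 (the MAM antigen) and SEMA7A (John Milton Hagen), each at 4 of 4 against 0 of 4 (Fisher's exact test with Benjamini-Hochberg adjustment over genes, adjusted p = 0.0323). HA-GATA2 against the empty vector called 1 of the 8 main genes, XK, and 2 of 25 others, A4GALT and AQP3, a water and glycerol channel (adjusted p = 0.032 by the same exact test), where 23.4% of genes were called. HA-T354M against the empty vector called 0 of 7 main genes and 0 of 25 others, where 0% of genes were called. HA-GATA2 against HA-T354M with anti-GATA2 called 1 of the 8, XK, and 1 of 25 others, AQP3 (adjusted p = 0.0441 by the same exact test), where 8.30% were called.

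With anti-HA, 6 of 6 main genes (all but XK and KEL) and 9 of 18 others had a peak in all 4 HA-GATA2 libraries, where 28.7% of genes were called against the empty vector, which again counts presence in HA-GATA2 only. In order of mean percentile the first 6 of the 9 were SLC44A2 (97.4), AQP1 (88.9), ERMAP (86.3), BSG (85.7), ABCC1 (66.1) and SLC14A1 (66.1). SLC44A2 carries the CTL2 antigens, AQP1 the Colton, ERMAP the Scianna, BSG the Ok and SLC14A1 the Kidd antigens. HA-T354M against the empty vector called 0 of 3 main genes and 1 of 8 others, SLC44A2, where 23.0% were called. HA-GATA2 against HA-T354M called 3 of 6 main genes, GYPB, GYPE and RHAG, and 3 of 19 others, ABCC1, SLC14A1 and CD44 (adjusted p = 0.0346 by the same exact test), where 14.0% were called.

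By library, GYPB, GYPE and RHAG had the same presence in all 28 libraries as SLC14A1, the urea transporter with the Kidd antigens, and differed from ABCC4 in 1 library. RHCE matched BSG and ERMAP in all 28. GYPC and RHD differed from BSG and from CR1 in 1 library each. XK differed from A4GALT in 2 and from AQP3 in 3 libraries, and KEL from ACKR1 and from AQP3 in 3. By site, 299 of the 17277 in the series have the pattern of GYPB -148 and GYPE -158 over the 28 libraries. The pattern of RHCE +7605 is held by 46 sites and that of KEL +1 by 5. How common such matches are between genes was not tested, so they show no link between the genes named.

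**Figure D5:**
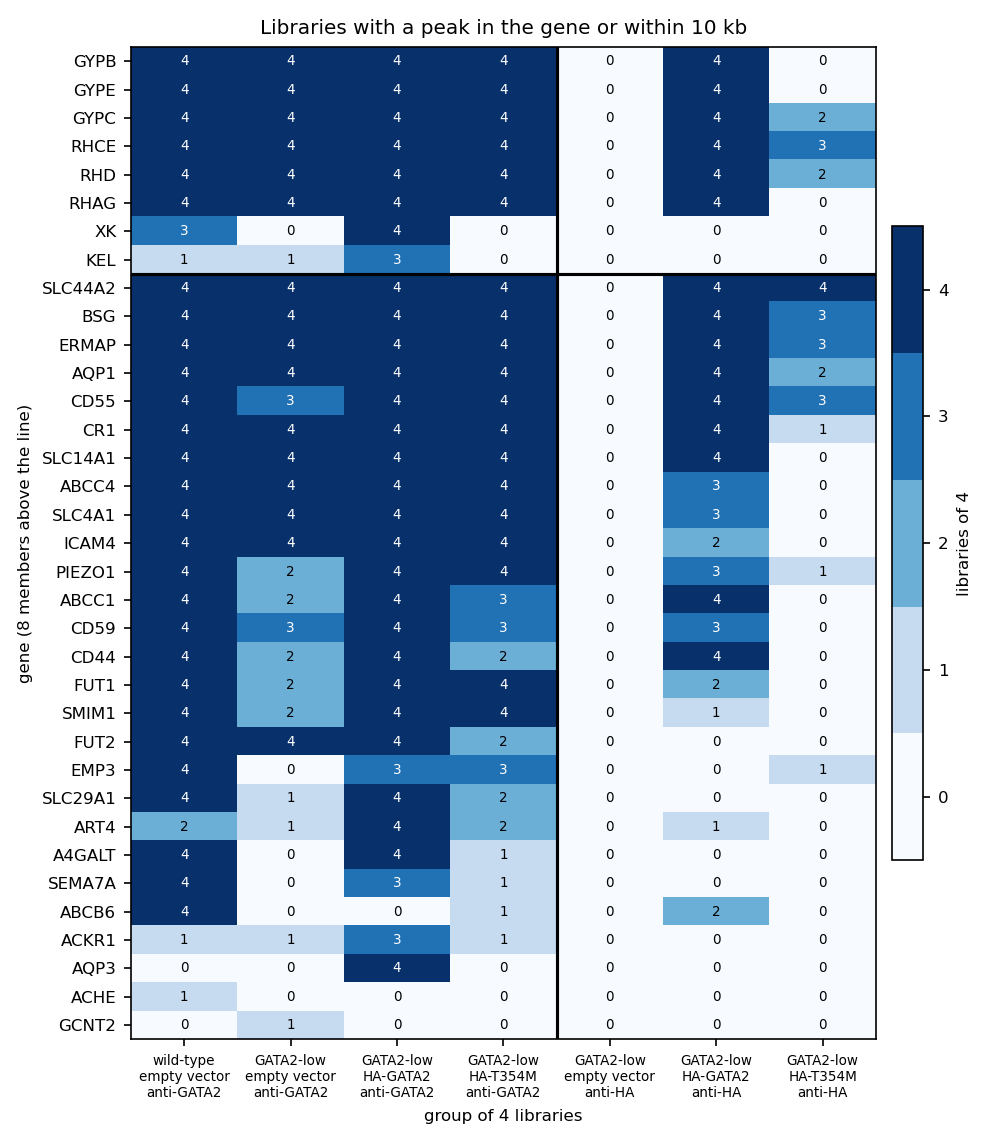
Number of libraries out of 4 with a peak in the gene or within 10 kb, for the 8 main genes (above the line) and for the genes of the wider list with any peak, in the 7 groups. XK and KEL read 0 to 3 outside HA-GATA2 anti-GATA2, and EMP3, SEMA7A, ABCB6 and A4GALT read 4 in wild-type and 0 in GATA2-low empty-vector libraries.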

How the data were processed

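CUT&Tag libraries came from 7 groups of 4 with a peak list each, of 36 libraries described; the 8 IgG libraries were not analysed here. Groups were taken from the titles. For replicate 1 of the GATA2-low empty-vector group with anti-GATA2 the title was followed, although its genotype label says wild-type. MACS2 2.2.7.1, Bowtie2 2.2.5, cutadapt 3.3, deepTools 3.5.3 and FastQC are named in the submitters' processing notes, with hg38 and without settings. The deposited narrowPeak lists, called per library, give a fold enrichment (a linear ratio to local background), p and q as -log10 values, a score and the summit offset. In the deposited lists the score equals 10 times -log10 q, and the authors' -log10 q, used here for ranks, was at least 6 in every list. These are the authors' values and were used only to rank, filter or describe peaks of 1 list.

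Peaks on the mitochondrial sequence, chromosome Y and unplaced sequences (455 of 120964) were left out. Sites are peaks of all 28 lists merged at an overlap of at least 1 bp. Each of 7 pairs of groups was compared by Fisher's exact test per site over the whole series (SciPy 1.17.1), with Benjamini-Hochberg adjustment over those sites that 4 of the 8 libraries hold and a threshold of 0.05. Whether a site passes therefore depends on how many others are separated. In lists above 100 peaks, the deposited fold and -log10 p gave back fragments and background to within 0.03% at all 119818 peaks read; 675 others, 6 of them at GYPC +5771, had a p too small to read and were kept when fragments were thinned. With anti-GATA2, HA-GATA2 and HA-T354M lists carried a caller scaling of 0.5 to 0.706, and wild-type and GATA2-low empty-vector lists 1. The part of this difference in the comparisons between these groups was not tested separately. Genes and promoters came from RefSeq tables of assembly GRCh38.p14. The code was tested on simulated data. No 2 lists were identical. Alternatives were trimmed peaks, a stricter q, equal list lengths, thinned fragments, other windows, another adjustment, a replicate block and each library left out. All members and all their sites are named, and of the wider list up to 6 called genes per comparison. The genes, lists and tests were chosen with earlier results of these data known.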

Additional observations from a re-analysis of the deposited data

Results flagged for a closer look

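Values that stood apart from the other 3 libraries of their group were looked for by Dixon's criterion at the 95% level in 65 groups of values, where chance marks about 1 in 20, and 8 were found. HA-GATA2 anti-GATA2 replicate 1 was low at GYPC -4920, with a percentile of 13.2 against 50.5 to 56.7, at XK +31112, with 5.32 against 49.4 to 56.9, and at RHCE +7605, with 91.5 against 96.3 to 96.6. HA-GATA2 anti-HA replicate 4 had 8 peaks at the 8 genes where the other 3 libraries had 13 each. At GYPC +5771 it stood at 59.5 against 87.2 to 91.9, and at RHAG -40 at 12.6 against 46.2 to 50.9. Both libraries had the shortest list of their group (7064 and 1912 peaks). GATA2-low empty-vector replicate 2 stood at 97.6 against 98.7 to 98.9 at GYPC +5771, and wild-type replicate 2 at 87.3 against 91.9 to 92.4 at RHD +12791.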

How the results depend on the processing

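Number of member sites called higher, by comparison. Counts over the series are given for part of these, and a change without one shows nothing particular to these genes. In wild-type against GATA2-low empty vector the 0 became 1 with a -log10 q of at least 15 (RHCE +10696) and 1 with windows of 50 kb, and 0 to 1 with each library left out (1 without wild-type replicate 1 or GATA2-low replicate 4). Over the series the 1524 became 1207 with that q, 1968 without wild-type replicate 1 and 2230 without GATA2-low replicate 4. In HA-GATA2 against the empty vector with anti-GATA2 the 5 became 0 with lists of equal length, 8 with windows of 50 kb and 0 to 13 with each library left out. The stricter q also gave 5 there, but GYPB +15937 and RHCE +10696 took the place of GYPC -4920 and XK +31112. The count was 4 with thinned fragments, without XK +31112, and 4 with the gene body only, without GYPC -4920. Over the series the 3353 of this comparison became 251 with equal lengths, 2991 with the stricter q and 2258 with thinned fragments. It was 0 without GATA2-low empty-vector replicate 1, 2 or 3 and 5536 without HA-GATA2 replicate 1. In HA-T354M against the empty vector the 0 became 1 with the stricter q and stayed at 0 with each library left out. Over the series the 0 became 346 with the stricter q. In HA-GATA2 against HA-T354M with anti-GATA2 the 4 became 2 with the stricter q, 0 with equal lengths and 0 to 14 with each library left out. Over the series the 1484 became 1350 with the stricter q and 156 with equal lengths. With anti-HA, HA-GATA2 against the empty vector went from 8 to 5 with the stricter q, 5 with equal lengths, 5 with the gene body only and 0 to 11 with each library left out; HA-T354M against the empty vector from 0 to 0 to 1; and HA-GATA2 against HA-T354M from 5 to 0 with equal lengths, 3 with thinned fragments, 2 with the gene body only and 0 to 8. Adjusted over every site with a peak, the count was 0 in all 7 comparisons (smallest adjusted p = 0.113 to 0.483, Fisher's exact test). With the replicate block it was 0 in all 7, since its smallest p is 0.125. Replicate numbers gave no sign of pairing: same-number correlations of deviations ran from -0.048 to 0.13, and no comparison had all 4 above 0.1. This does not show whether libraries with the same number were prepared together. Trimmed peaks changed no count beyond 1.5 times. Of 344 values of single called sites under an alternative, 167 kept the call, 177 lost it and 0 turned direction. A turn could not occur, since each such site had 0 libraries in the second group and no alternative adds a peak. Fewer peaks, sites or libraries entered by construction under several of the alternatives, and other causes were not tested. Thinning was not run against the empty vector with anti-HA, whose lists were too short. A call is limited by list length: a missing peak is not an absence of binding.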
